A study of Mus musculus with 19 samples.

Results

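Schwann cell and peripheral nerve transcripts were followed in 19 whole mammary tumours through 8 genes: Mbp, Pmp22, Prx, Sox10, S100b, Ngfr, Cdh19 and Gfra3. The genes were chosen by symbol, each matched to 1 Ensembl identifier among the 26796 in the deposited table. The tumours were grown from Met1, a mouse mammary tumour line, and all hosts received extracellular vesicles, membrane particles that cells shed, made by neutrophils. In the 27HC group (10 tumours) those neutrophils had been exposed to 27-hydroxycholesterol, a cholesterol metabolite. In the DMSO group (9 tumours) they had been exposed to the solvent. Host strain, host age, vesicle dose and timing were not stated in the labels. Nor do they say whether each tumour is from its own mouse, so p-values measure only the spread between these samples.

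Schwann cells wrap the axons of peripheral nerves. Myelinating Schwann cells build a compacted sheath from a few abundant membrane proteins, while non-myelinating Schwann cells ensheath thin axons and keep markers of the immature lineage. Tumours can be crossed by nerves, and a dissected tumour can also carry nerve or muscle from its bed. Several of the 8 genes are not restricted to nerve. Mbp also gives rise to longer transcripts in lymphoid cells. Pmp22 is transcribed in fibroblasts and many epithelia. Sox10 marks parts of the mammary and salivary epithelium, and S100b is made by fat cells as well. In whole tumours, fewer cells of a type and less RNA per cell cannot be told apart.

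Totals ranged from 28139419 to 41179056 estimated counts per tumour. Levels are in CPM, counts scaled by library size with TMM normalization. Libraries fell into separate clusters by the mean GC content of their transcripts, weighted by counts. It was 49.4 to 49.6% in 5 libraries (27HC replicates 1_3, 1_5 and 2_3, and DMSO replicates 1_5 and 2_3) and 50.9 to 52.5% in the other 14. Some of the results are therefore also given with those 5 left out. The 3 of them in the 27HC group held 188 to 1107 CPM of the muscle gene Acta1, and the 2 in the DMSO group 0.619 and 29.9 CPM. DMSO replicate 1_5 carried 6870 CPM summed over 9 salivary gland genes and 27HC replicate 2_2 carried 1080 CPM, against at most 40.7 CPM in any other tumour.

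The label of the gene set held only in part. The myelin genes and Sox10 were readily counted, but Cdh19, a cadherin of Schwann cell precursors and non-myelinating Schwann cells, and Gfra3, the receptor for the neurotrophic factor artemin, were near the detection limit. Cdh19 had at most 14.5 counts in a 27HC tumour and at most 12.4 in a DMSO tumour, and 3 of 19 tumours reached 10 counts. Gfra3 had at most 3.02 counts in a 27HC tumour and 17.7 in a DMSO tumour, DMSO replicate 1_5, the only one to reach 10. A count of 0, which allows up to 0.0605 to 0.12 CPM depending on the library (3 counts, counting error only), was found for Gfra3 in 6 27HC and 2 DMSO tumours. Foxd3, an early neural crest factor, and Pmp2, a lipid carrier of peripheral myelin, had medians of 0.492 and 0 counts.

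Per kilobase of exon, Pmp22 had the highest level, a median of 5.21 CPM per kilobase over 19 tumours. Prx followed with 2.06, S100b with 1.3, Sox10 with 1.11 and Mbp with 1.1 CPM per kilobase. Ngfr had 0.164, Cdh19 0.0265 and Gfra3 0.0158 CPM per kilobase. Every tumour's Pmp22 level was above the highest Prx level (3.59 against 3.49 CPM per kilobase). The ranges of Prx and S100b overlapped, as did those of S100b, Sox10 and Mbp among themselves, and those of Ngfr, Cdh19 and Gfra3. All Mbp and S100b values were above the highest Ngfr value of 0.34, whereas Sox10 went down to 0.0584 CPM per kilobase.

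The comparison of 27HC with DMSO asks how vesicles from 27HC-treated neutrophils changed the tumours. Mbp and Pmp22 had lower levels with 27HC but did not pass the threshold, and the other members tested showed no shift beyond the spread between tumours. Of the 8 genes, 6 passed the filter on low counts and 0 were called, 0 higher and 0 lower, at an adjusted p under 0.05 in edgeR's quasi-likelihood test with Benjamini-Hochberg adjustment over 15629 genes. Over all genes tested, 0% were called, and 354 had an unadjusted p under 0.05, against 781 expected at 5%. limma-voom called 0 genes and DESeq2 called 2, none of them a member. The median log2 fold change was -0.05 over the 6 members tested, 1 above 0 and 5 below, and 0.014 over all genes tested, of which 53.9% were above 0.

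Mbp (GRCm38 chromosome 18, 82475146 to 82585637) encodes myelin basic protein, which holds the cytoplasmic faces of the sheath together. In 27HC tumours its lowest, median and highest levels were 6.91, 8.82 and 11.5 CPM, against 8.0, 10.8 and 19 CPM in DMSO tumours. The groups overlapped, with 1 of 10 27HC tumours above the DMSO median and 4 of 10 below the lowest DMSO tumour. The top value belonged to DMSO replicate 1_3, followed by DMSO replicate 2_4 with 12.9 CPM. Means were 8.81 ± 1.43 CPM (SD, n = 10) with 27HC and 11.2 ± 3.36 CPM (SD, n = 9) with DMSO. The log2 fold change was -0.35 (SE 0.16), with a 95% confidence interval of -0.67 to -0.02, an unadjusted p of 0.037 and an edgeR adjusted p of 1. It was -0.22 without DMSO replicate 1_3 and -0.35 with the 5 libraries of low GC content left out.

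Pmp22 (chromosome 11, 63128982 to 63159547) encodes a membrane protein of compact myelin whose gene dosage decides an inherited neuropathy in humans. Its lowest, median and highest levels were 8.45, 11.5 and 13.5 CPM in 27HC tumours, against 9.78, 13.4 and 17.9 CPM in DMSO tumours. As for Mbp, 1 of 10 27HC tumours lay above the DMSO median, and no 27HC tumour lay above the highest DMSO tumour. Means were 11.2 ± 1.6 CPM (SD, n = 10) with 27HC and 13.5 ± 2.48 CPM (SD, n = 9) with DMSO. Its log2 fold change was -0.27 (SE 0.13), with a 95% confidence interval of -0.53 to -0.01, an unadjusted p of 0.0419 and an edgeR adjusted p of 1. The value was -0.31 with the 5 low GC libraries left out. The summed level of the immune marker list was 248.7 to 539.4 CPM with a median of 348.8 CPM with 27HC, and 290.8 to 482.1 CPM with a median of 433.9 CPM with DMSO. Of its 8 genes, 6 had fold changes below 0 and 0 were called. Of 7 fat cell genes tested, 6 had fold changes below 0 and 0 were called, with a summed median of 237 CPM with 27HC and 207 CPM with DMSO. The part of either list in the fold changes of Mbp and Pmp22 was not tested.

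Prx (chromosome 7, 27499324 to 27520214) encodes periaxin, which anchors the Schwann cell membrane to the dystroglycan complex. Levels ran from 6.47 to 19.5 CPM with a median of 11.2 CPM in 27HC tumours, against 6.72 to 16.2 CPM with a median of 13.1 CPM in DMSO tumours. Both groups covered nearly the same range. The log2 fold change was -0.073 (SE 0.21), with a 95% confidence interval of -0.51 to 0.36 and an edgeR adjusted p of 1. With the 5 low GC libraries left out it was 0.0029. An unnamed antisense gene overlaps exons of Prx in the annotation, and the sources used here do not state whether counting used strand.

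**Figure D1:**
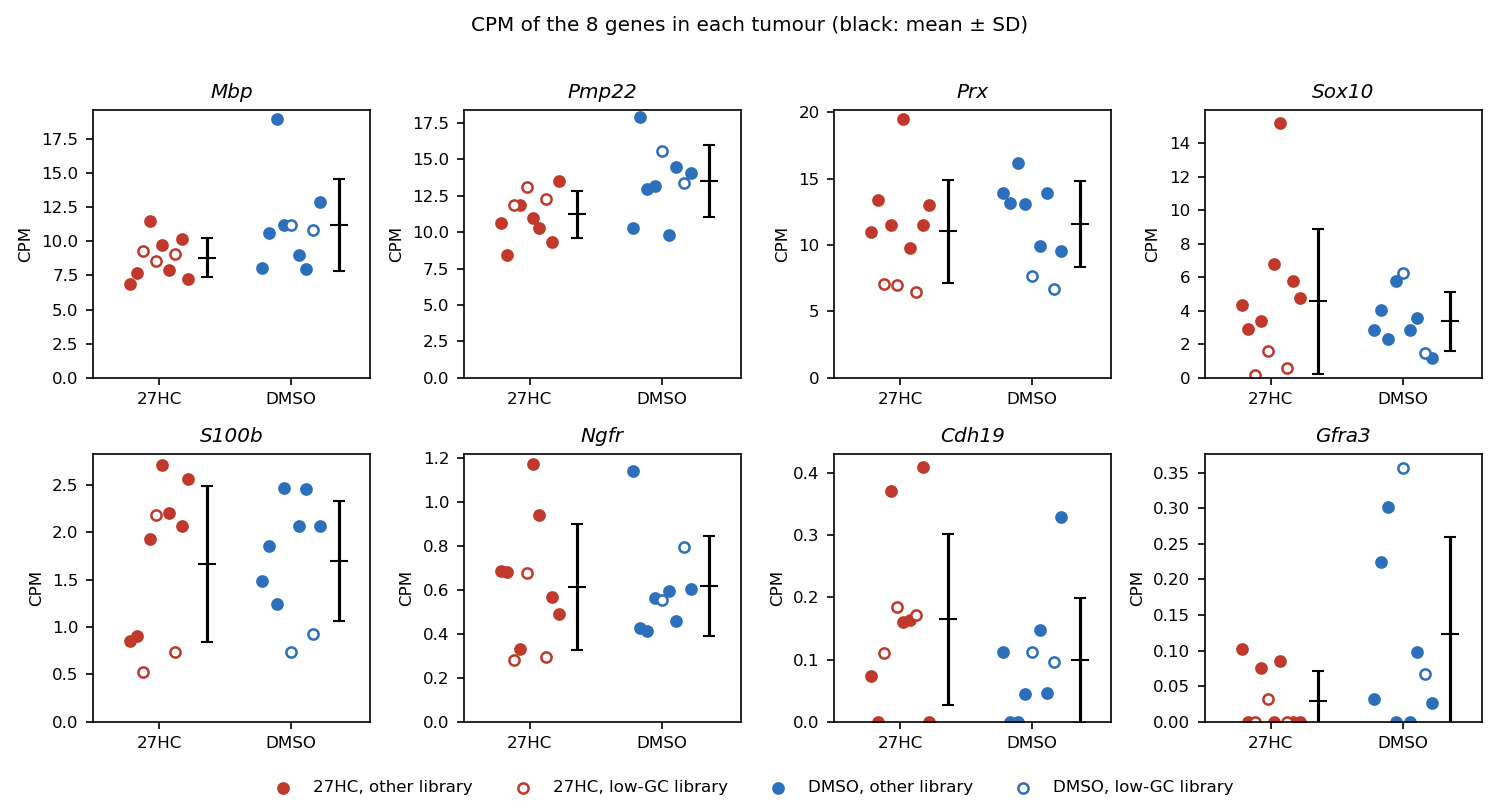
Level of each gene in CPM (vertical axis) in each of 10 27HC and 9 DMSO tumours, 1 point per tumour, with mean ± SD in black (cut at 0) and open points for the 5 libraries of low GC content. The 27HC and DMSO points overlap in all 8 panels, and the open points lie at the bottom of the Prx panel in both groups.

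Sox10, the transcription factor that Schwann cells need throughout their development, varied far more than the myelin genes. Its log2 fold change (chromosome 15, 79154908 to 79165240) was 0.43 (SE 0.53), with a 95% confidence interval of -0.66 to 1.53 and an edgeR adjusted p of 1. In 27HC tumours the lowest, median and highest levels were 0.178, 3.88 and 15.2 CPM, against 1.19, 2.86 and 6.26 CPM in DMSO tumours. The 27HC tumours thus reached both below and above all DMSO tumours, with 2 of 10 on each side. The lowest pair, 27HC replicates 1_3 and 2_3 with 0.178 and 0.594 CPM, are libraries of low GC content.

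The highest Sox10 level of each group belonged to the tumour with salivary gland transcripts, 27HC replicate 2_2 (15.2 CPM) and DMSO replicate 1_5 (6.26 CPM). The gland genes differed between them. In 27HC replicate 2_2 they were mainly Prol1, a proline-rich secretory protein gene, with 938 CPM, and Pip, with 97.2 CPM. In DMSO replicate 1_5 they were mainly Bpifa2, a secreted salivary protein gene, with 3970 CPM, and the amylase gene Amy1, with 1580 CPM. Without 27HC replicate 2_2 the log2 fold change of Sox10 was -0.0035, and it was 0.94 with the 5 low GC libraries left out. The part of gland tissue in these levels was not tested.

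By the first number in the titles, which has no stated meaning, Sox10 went opposite ways. Its log2 fold change was -0.81 among tumours with number 1 (5 27HC and 5 DMSO) and 1.54 among those with number 2 (5 27HC and 4 DMSO). The interaction was 2.33 (SE 0.98) on the log2 scale, with an unadjusted p of 0.0288 and an edgeR adjusted p of 0.911. No interaction passed for any gene tested (0%), and 223 had an unadjusted p under 0.05, against 781 expected at 5%. DESeq2 and limma-voom were not run for the interaction.

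S100b (chromosome 10, 76253853 to 76261159), a calcium-binding protein of Schwann cells, had 0.532 to 2.71 CPM with a median of 1.99 CPM in 27HC tumours. In DMSO tumours it had 0.736 to 2.47 CPM with a median of 1.85 CPM. The log2 fold change was -0.027 (SE 0.32), and the 95% confidence interval of -0.70 to 0.64 left room for changes of either sign. Ngfr (chromosome 11, 95568818 to 95587735), the low-affinity receptor for nerve growth factor, had 0.281 to 1.17 CPM with a median of 0.621 CPM in 27HC tumours. In DMSO tumours it had 0.413 to 1.14 CPM with a median of 0.562 CPM. Its log2 fold change was -0.016 (SE 0.28), from at most 39.9 counts per tumour, and 3 of 10 27HC tumours lay below all DMSO tumours while 1 lay above. The edgeR adjusted p of both genes was 1.

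Cdh19 (chromosome 1, 110888326 to 110977584) and Gfra3 (chromosome 18, 34689898 to 34720387) did not pass the filter. Each was compared on log2 CPM by an exact permutation test, two-sided, with 92378 regroupings of the tumours. Cdh19 averaged 0.165 ± 0.137 CPM (SD, n = 10) with 27HC and 0.099 ± 0.101 CPM (SD, n = 9) with DMSO, a difference of 0.46 in log2 CPM (exact permutation p = 0.315). Gfra3 averaged 0.030 ± 0.042 CPM (SD, n = 10) with 27HC and 0.123 ± 0.136 CPM (SD, n = 9) with DMSO, a difference of -0.82 in log2 CPM (exact permutation p = 0.0623). Neither difference passed. The 3 highest Gfra3 values were in DMSO replicates 1_5, 1_3 and 1_2, with 0.357, 0.301 and 0.225 CPM.

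**Figure D2:**
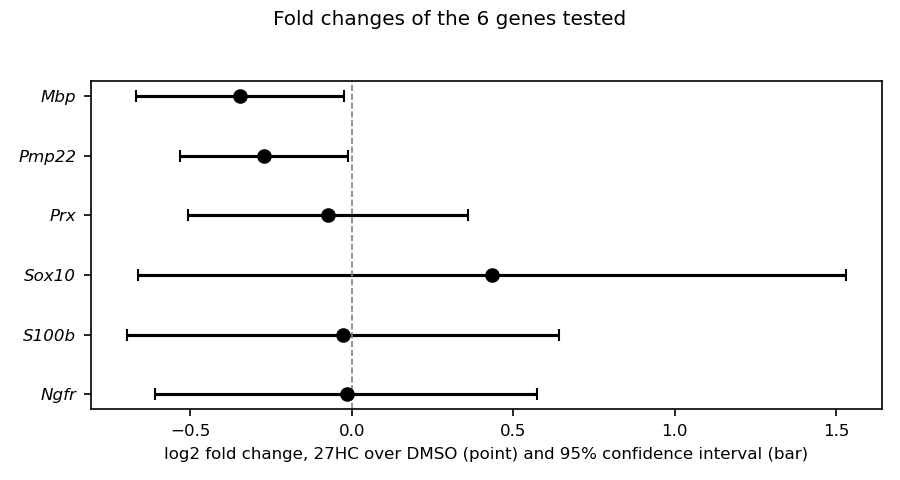
Log2 fold change of 27HC over DMSO (horizontal axis) for the 6 genes that passed the filter, with 95% confidence intervals from edgeR's quasi-likelihood fit. The intervals of Mbp and Pmp22 end just below 0, that of Sox10 is the widest, from -0.66 to 1.53, and no adjusted p passed.

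Other genes of the same biology were counted by list, and 0 members of any list were called, against 0% of all genes. Of 20 further myelin genes, 13 were tested, 5 with a fold change above 0 and 8 below (median log2 fold change -0.05). Nfasc, which encodes a node and paranode adhesion protein, had 0.38 (SE 0.29) and Drp2, a partner of periaxin, 0.28 (SE 0.24). Of 20 further Schwann cell markers, 16 were tested, 10 above 0 and 6 below (median 0.07), among them the adhesion molecule gene Ncam1 with 0.23 (SE 0.15). Of 17 neuregulin and neurotrophin signalling genes, which include the signals by which axons sustain Schwann cells, 15 were tested, 11 above 0 and 4 below (median 0.03). Ntrk2, the receptor for brain-derived neurotrophic factor, had -0.53 (SE 0.25) and Nrtn, the neurturin gene, 0.98 (SE 0.55). Of the 11 perineurial and endoneurial genes, 9 were tested, 8 above 0 and 1 below (median 0.21). The edgeR adjusted p of each gene named from these lists was 1. The lists of Schwann cell markers and of neuregulin and neurotrophin signalling share 4 genes.

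Most neuronal transcripts were scarce. Of 15 axon and neuron genes, 14 were in the table and 5 were tested, 3 above 0 and 2 below (median 0.03). The synaptic gene Snap25, the calcitonin gene-related peptide gene Calca and the tyrosine hydroxylase gene Th each had a median of 0 counts, and the neurofilament genes Nefl and Nefm had medians of 3.03 and 3.96 counts. The peripherin gene Prph, an intermediate filament of peripheral neurons, was counted at 5.78 ± 2.36 CPM (SD, n = 10) with 27HC and 5.65 ± 3.95 CPM (SD, n = 9) with DMSO. The other genes tested, Tubb3, Uchl1, Nefh and Stmn2, had medians of 70.0, 26.5, 17.9 and 10.1 counts, and none was 0 in any tumour. Central myelin was scarcely seen: Mog, which marks oligodendrocytes, had a median of 0 counts, and of the 4 central myelin genes tested 1 was above 0 and 3 below (median -0.035).

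Among the other cell types a tumour can hold, all 20 skeletal muscle genes had fold changes above 0 (median 1.64) and 0 were called. Their summed level was 36.1 to 5770 CPM in 27HC tumours and 36.9 to 1786 CPM in DMSO tumours. It was highest in 27HC replicates 1_5 and 1_3 (5770 and 4910 CPM), both libraries of low GC content. In 27HC replicates 1_1, 1_4 and 2_5 it was 36.1, 45.6 and 37.5 CPM. The other lists had medians of 0.051 for 8 fibroblast genes, -0.022 for 8 endothelial genes, 0.017 for 8 basal and myoepithelial genes, -0.17 for 7 fat cell genes, -0.17 for 8 immune genes, 0.0024 for 4 melanocyte genes and -4.02 for 4 salivary gland genes, whose sum was highest in DMSO replicate 1_5.

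The myelin genes were set against the other 5 members, called nerve markers here although Sox10 and S100b are also made by epithelium and fat cells. The summed level of Mbp, Pmp22 and Prx ran from 27.8 to 40.2 CPM in 27HC tumours and from 28.7 to 48.3 CPM in DMSO tumours. The summed level of Sox10, S100b, Ngfr, Cdh19 and Gfra3 ran from 1.10 to 18.6 CPM in 27HC tumours and from 3.35 to 8.86 CPM in DMSO tumours. Their ratio therefore ran from 1.5 to 25.6 with a median of 5.19 in 27HC tumours, and from 4.23 to 11.3 with a median of 5.72 in DMSO tumours. The 27HC tumours held both ends. 27HC replicate 2_2, a tumour with salivary gland transcripts, was at 1.5, and Sox10 made up 81.8% of its marker sum. 27HC replicate 1_3 was at 25.6, and Sox10 made up 16.2% of its marker sum. That tumour and the next highest, 27HC replicate 2_3 at 15.5, are libraries of low GC content. With the 5 low GC libraries left out, the highest ratio was 6.61 in 27HC tumours (replicate 1_2) and 11.3 in DMSO tumours (replicate 1_3). The median ratio over all tumours was 5.7. It was 3.35 without Pmp22, 9.8 without S100b and Ngfr, and 3.21 per kilobase. The ratio is a description and was not tested.

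**Figure D3:**
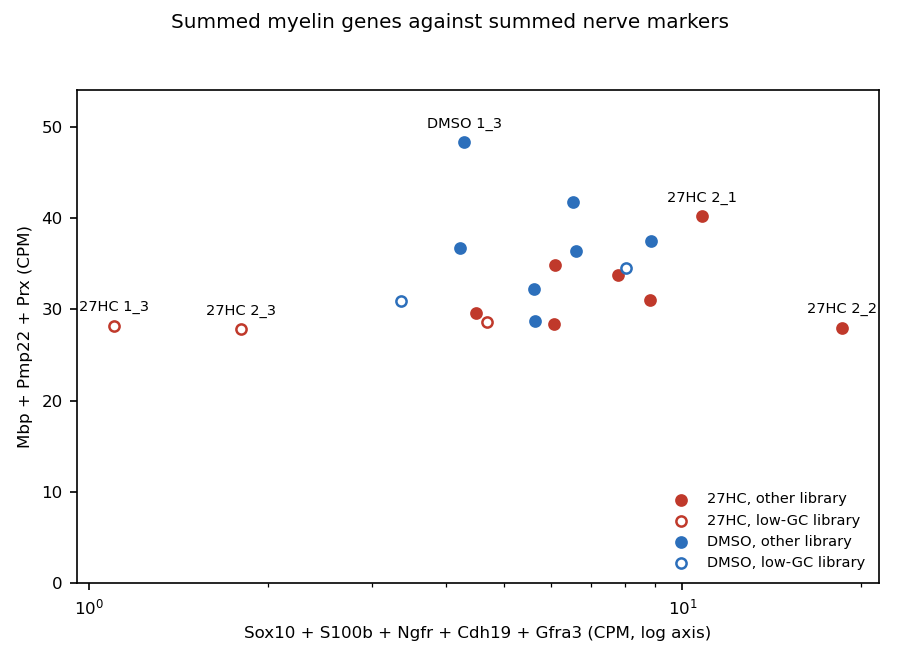
Summed CPM of Mbp, Pmp22 and Prx (vertical axis) against summed CPM of Sox10, S100b, Ngfr, Cdh19 and Gfra3 (horizontal, log axis), 1 point per tumour, with open points for libraries of low GC content. The markers spread from 1.10 to 18.6 CPM while the myelin sum stays between 27.8 and 48.3 CPM.

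Across the 19 tumours, 0 of 28 pairs of members were correlated after adjustment over the 28 pairs, by Pearson's r or Spearman's rho on log2 CPM (permutation tests, 100000 resamples). The 3 pairs among Mbp, Pmp22 and Prx had r between -0.142 and 0.381, and the 10 pairs among the nerve markers had r between -0.265 and 0.571. The 15 pairs across the 2 kinds had r between -0.382 and 0.545, with a median of 0.0392. With TMM scaling the highest value was that of Sox10 with S100b, r = 0.571 (permutation p = 0.00889, adjusted p = 0.115) and rho = 0.447 (adjusted p = 0.432). It was 0.692 with an adjusted p of 0.0339 without DMSO replicate 1_5, 0.384 with an adjusted p of 0.38 without 27HC replicate 1_3, and 0.312 within the 14 libraries outside the low GC cluster (permutation tests). With CPM by the total count it was that of Mbp with Pmp22, r = 0.644 (permutation adjusted p = 0.0944) and rho = 0.651 (adjusted p = 0.0924), against r = 0.381 and rho = 0.382 with TMM scaling. By the total count Sox10 with S100b had r = 0.475 (permutation adjusted p = 0.413). Sox10 with Ngfr had r = 0.528 over all tumours (permutation adjusted p = 0.115), 0.754 within 27HC tumours and -0.269 within DMSO tumours.

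The relation to muscle was examined through Acta1, the skeletal muscle actin gene. Acta1 ranged from 0.806 to 1107 CPM in 27HC tumours and from 0.619 to 423.9 CPM in DMSO tumours, with a log2 fold change of 1.37 (SE 1.32, edgeR adjusted p = 1). No member followed it. All 8 Pearson correlations with Acta1 lay between -0.251 (Gfra3) and -0.0187 (Cdh19), and 0 of 8 passed (permutation tests, smallest unadjusted p = 0.299, adjusted p over the 8 relations = 0.94). Spearman's rho lay between -0.294 (Gfra3) and 0.0485 (Cdh19), with each adjusted p at 0.934. 27HC replicate 1_5 had the most Acta1 of all tumours, and its Mbp and Cdh19 levels were 8.56 and 0.184 CPM, inside the range of the tumours with under 1 CPM of Acta1. 27HC replicate 1_3, a library of low GC content, came next with 775 CPM of Acta1. It had the lowest Sox10, S100b and Ngfr of all tumours, 0.178, 0.531 and 0.281 CPM. Its Mbp, Pmp22, Prx, Cdh19 and Gfra3 levels were inside the range of the tumours with under 1 CPM of Acta1. Without the 2 tumours farthest from the Acta1 median, DMSO replicates 2_2 and 2_3, r lay between -0.308 (Sox10) and 0.0697 (Pmp22). For Sox10 the relation differed in sign between the groups, with r = -0.549 within 27HC tumours and 0.543 within DMSO tumours. Neither passed (permutation adjusted p = 0.532 and exact permutation adjusted p = 0.979), and the difference itself was not tested.

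**Figure D4:**
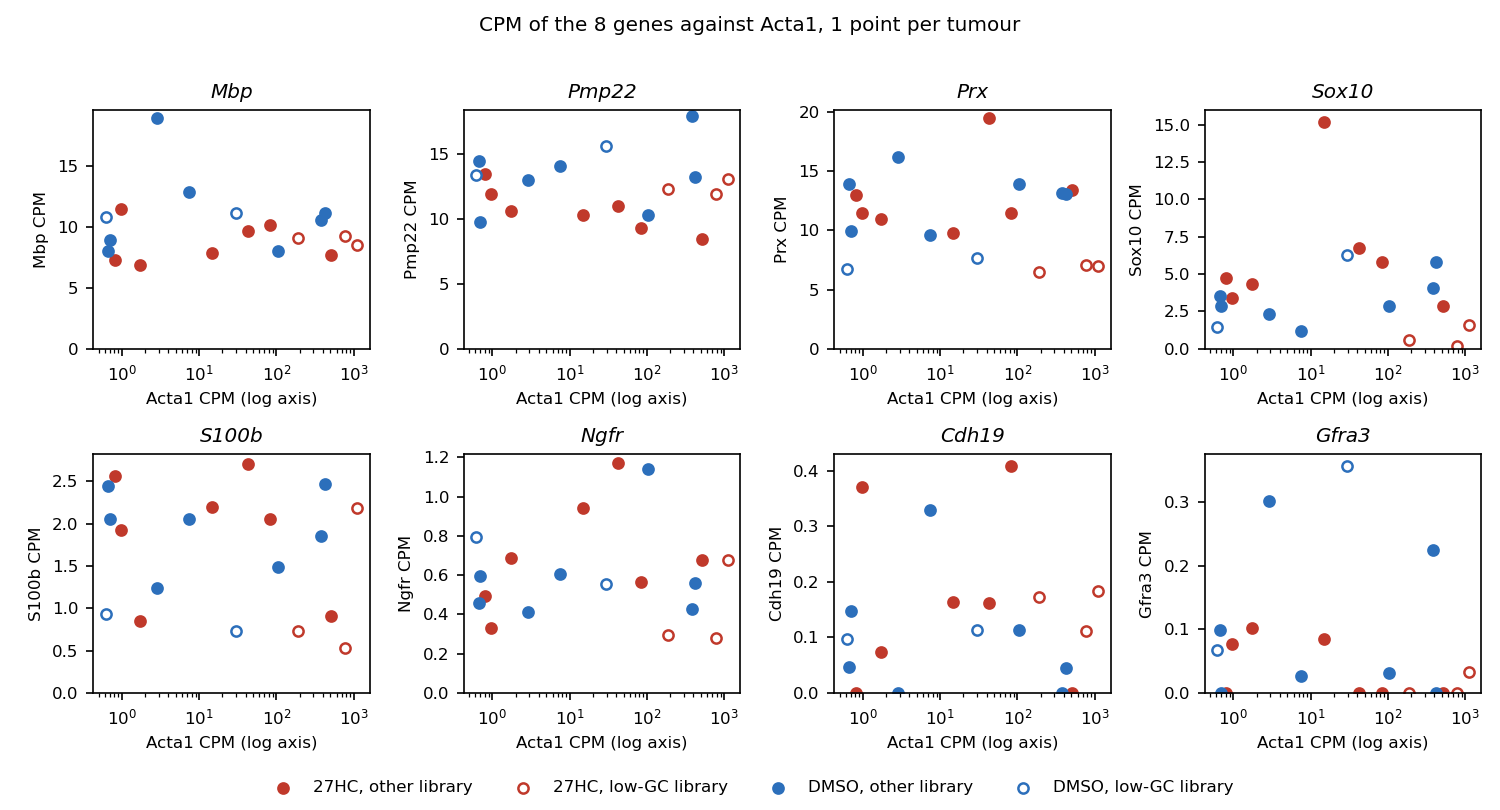
CPM of each gene (vertical axis) against CPM of Acta1 (horizontal, log axis) in 19 tumours, with open points for libraries of low GC content. Acta1 spans 0.619 to 1107 CPM, and no panel shows a slope that passed the test.

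Library GC content separated some members. All 5 libraries of low GC content had less Prx than any of the other 14, 6.47 to 7.65 CPM against 9.59 to 19.5 CPM. S100b had a median of 0.736 CPM in those 5 and 2.06 CPM in the 14, and Sox10 1.47 and 3.8 CPM. Mbp had 9.29 and 9.35 CPM and Pmp22 13.1 and 11.4 CPM. The transcripts of Prx and Sox10 hold 58.1 and 62.7% GC, those of S100b 48.3%, Mbp 54.5%, Pmp22 52.3% and Cdh19 37.7%. Within the 14 libraries, 0 of 8 members were correlated with GC content after adjustment. Prx had the highest r there, 0.524 (permutation p = 0.0537, adjusted p = 0.429) with rho = 0.336 (adjusted p = 0.509), and r = 0.481 without the 2 libraries farthest from the median.

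**Figure D5:**
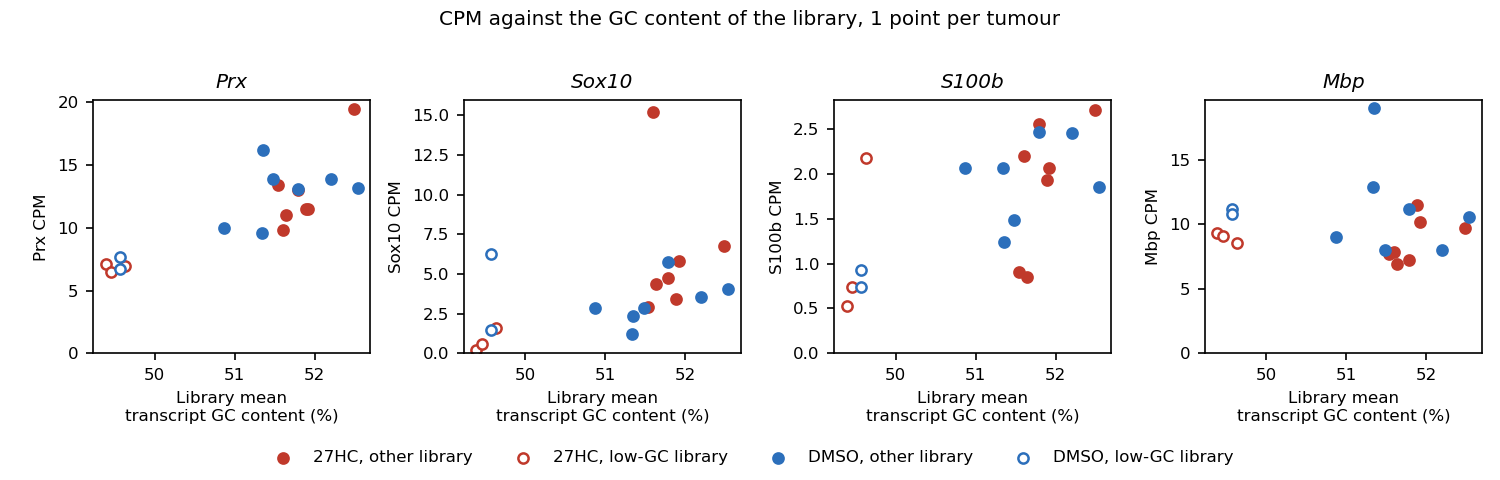
CPM of Prx, Sox10, S100b and Mbp (vertical axes) against the count-weighted mean transcript GC content of the library in percent (horizontal axis), 1 point per tumour. The 5 open points at 49.4 to 49.6% lie below all others for Prx, while for Mbp they lie among them.

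Each member was also set against the summed level of each of 14 marker lists, 112 relations in all. By Pearson's r 15 passed after adjustment, 9 passed by Spearman's rho and 7 by both, but within the 14 libraries outside the low GC cluster 0 passed. Prx with the further myelin genes had r = 0.893 (permutation adjusted p = 0.00112) and rho = 0.839 (adjusted p = 0.00224). The widely transcribed genes Mpzl1, at 66.3 CPM with 27HC and 62.0 CPM with DMSO on average, and Cnp, at 24.9 CPM with 27HC and 28 CPM with DMSO, make up most of that sum. Within the 14 libraries its r was 0.636 (permutation adjusted p = 0.205), and within tumours of first title number 1 and 2 it was 0.935 and 0.864. S100b with the fat cell list had r = 0.744 (permutation adjusted p = 0.00464) and rho = 0.646 (adjusted p = 0.0463), with r = 0.761 and 0.878 by title number and 0.468 within the 14 libraries. Sox10 with the same fat cell list had r = 0.795 (permutation adjusted p = 0.00464) and rho = 0.554 (adjusted p = 0.0884), with r = 0.81 and 0.815 by title number, 0.408 without the 2 tumours farthest from the list's median and 0.46 within the 14 libraries. Sox10 also passed by r alone with the further Schwann cell markers, r = 0.63 (permutation adjusted p = 0.0192) and rho = 0.554 (adjusted p = 0.0884). The same held with the further myelin genes, r = 0.648 (permutation adjusted p = 0.0192) and rho = 0.468 (adjusted p = 0.202). Within the 14 libraries these had r = 0.649 and 0.354. S100b, Prx and Sox10 each correlated with the neuregulin and neurotrophin list (r = 0.805, 0.82 and 0.672, permutation adjusted p = 0.00464, 0.00112 and 0.0175). Gfra1 and the widely transcribed genes Erbb2 and Sort1 contribute most to that sum. For S100b, Prx and Sox10 in that order, r within the 14 libraries was 0.558, 0.463 and 0.692. Without the 2 tumours farthest from the list's median it was 0.736, 0.756 and 0.51. By first title number 1 and 2, r was 0.775 and 0.914 for S100b, 0.752 and 0.897 for Prx and 0.529 and 0.81 for Sox10. The remaining relations that passed by both measures were Sox10 with the perineurial list, led by Itgb4, Sox9 and Slc2a1, which epithelium also transcribes (r = 0.676, and 0.601 within the 14 libraries) and Prx with the melanocyte list (r = -0.752, and -0.581 within the 14 libraries). Prx with the endothelial list passed by r alone, r = 0.683 (permutation adjusted p = 0.0175) and rho = 0.614 (adjusted p = 0.0586), with r = 0.553 within the 14 libraries.

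For Mbp and Pmp22 the highest r was with the immune list. Mbp had r = 0.574 with the immune genes (permutation adjusted p = 0.0506) and rho = 0.674 (adjusted p = 0.0344), and 0.724 within the 14 libraries (permutation adjusted p = 0.0963). Pmp22 had r = 0.631 (permutation adjusted p = 0.0297) and rho = 0.579 (adjusted p = 0.0772), and 0.809 within the 14 libraries (permutation adjusted p = 0.0622). With the other Schwann cell markers Mbp had r = -0.563 (permutation adjusted p = 0.0506) and rho = -0.575 (adjusted p = 0.0784). The largest parts of that list's sum are Tfap2a, at 138.6 CPM with 27HC and 125.6 CPM with DMSO on average, Ncam1 (97.02 and 82.65 CPM) and Matn2 (52.87 and 54.57 CPM). The part of these genes in the relation was not tested. By first title number, r with the immune list was 0.65 and 0.455 for Mbp and 0.642 and 0.655 for Pmp22. Without the 2 tumours farthest from the immune median it was 0.569 for Mbp and 0.682 for Pmp22.

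The genes whose levels ran most like each member's were sought among 13342 genes by Spearman's rho over the 19 tumours, as a description. For Mbp they included Cd3e, a chain of the T cell receptor complex, with 0.804, and Sash3, a lymphocyte adaptor, with 0.789. Pmp22 had Inka2 (0.753), Arhgdib (0.746), and Eif4a1, a translation initiation helicase (0.742). Prx had Snx33 (0.963), Sil1 and Axin1 (0.961 each), over tumours that include the 5 low GC libraries, all of them below the other 14 for Prx. Sox10 had Cited4 (0.928), Adgrb2 (0.905) and Fxyd3, an epithelial regulator of the sodium pump (0.898). Card14 (0.856) and Frat2 (0.842) were among those of S100b. The rho values of Ngfr were lower, with the desmosome gene Pkp1 and Sobp at 0.732 each and Dzip1l at 0.705. Cdh19, with Arid3a (0.693), Ighg1 (0.689) and Aqp9 (0.678), and Gfra3, with Pck1 (0.706), Mcee and Tmem42 (0.705 each), rest on few counts.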

How the data were processed

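The authors deposited expected counts per gene. The title of each tumour names its column. Per the submitters' processing notes, kallisto 0.44.0, edgeR, limma and GRCm38 were used, with no role stated. Per the labels' protocols, libraries were made with a stranded mRNA kit. The sources used here give neither the way transcripts were summed to genes nor the annotation release. Such estimated counts share ambiguous reads by a model. Symbols were found for 26290 identifiers; coordinates, exon lengths and GC content come from GENCODE M21 on GRCm38.

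Counts were rounded and tested with edgeR 4.0.16 (R 4.3.3), its quasi-likelihood test, TMM normalization and filterByExpr, which left out 11167 genes. Alternatives used DESeq2 1.42.0, limma-voom (limma 3.58.1) and the settings listed in the closing part. The fit was tested on simulated data. CPM uses the deposited fractional counts, and correlations use log2 CPM (prior count 2). The smallest p that 100000 resamples can give is 1e-05. Members and lists were chosen with earlier results of these data known. From each list up to 3 genes with the smallest p could be named, and likeness searched genes of at least 0 mean log2 CPM. Relations with lists and GC content, and the genes of the gland, scarce-transcript and GC sentences, were added after seeing the data. Some genes that the rule would name are not reported here.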

Additional observations from a re-analysis of the deposited data

How the results depend on the processing

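Mbp and Pmp22 kept fold changes below 0, and 0 members were called, under every alternative run. Leaving out 1 tumour at a time gave -0.395 to -0.224 for Mbp and -0.329 to -0.212 for Pmp22 (log2). DESeq2 called 2 genes, neither a member; edgeR with other settings, and limma-voom, called 0. The log2 fold changes of the other members are small against their errors and changed sign. For Ngfr it was 0.00176 with DESeq2, 0.00666 with RLE size factors, 0.157 for first title number 2 alone and 0.217 with the 5 low GC libraries left out. For Prx it was 0.238 for number 2 alone and 0.00294 with the 5 left out, and for S100b 0.11 for number 2 alone. For Sox10 it was -0.202 with limma-voom and -0.808 for number 1 alone. Taking the full title number as a replicate block, Sox10 was -0.124 and 0 genes were called. Same-numbered 27HC and DMSO tumours share only a number, with correlations of their deviations from -0.425 to 0.779 over 9 numbers. Leaving out 1 tumour at a time gave -0.00348 to 0.569 for Sox10, -0.148 to 0.0585 for S100b and -0.174 to 0.143 for Ngfr. Correlations with Acta1 passed under no setting, and these changed sign. By the total count, r was 0.0156 for Pmp22 and 0.0033 for Cdh19, and with Ckm in place of Acta1 it was 0.00515 for Ngfr. Within 27HC tumours r was 0.133 for Mbp and 0.0544 for Cdh19. Within DMSO tumours it was 0.294 for Pmp22, 0.543 for Sox10, 0.119 for S100b, 0.0638 for Ngfr, 0.315 for Prx and 0.0418 for Gfra3. For number 1 alone it was 0.07 for Pmp22, 0.0726 for S100b and 0.15 for Ngfr, and for number 2 alone 0.226 for Mbp and 0.65 for Cdh19. Without the 2 tumours farthest from the Acta1 median it was 0.0697 for Pmp22 and 0.00273 for Ngfr. With the 5 low GC libraries left out it was 0.0328 for Mbp, 0.18 for Sox10, 0.347 for Ngfr and 0.253 for Prx. Leaving out 1 tumour at a time gave -0.163 to 0.0822 for Mbp, -0.223 to 0.0858 for Pmp22, -0.119 to 0.129 for Ngfr and -0.139 to 0.0938 for Cdh19. Of the 28 pairs, 1 passed for number 2 alone (S100b with Prx) and 0 to 1 when 1 tumour was left out, the 1 without DMSO replicate 1_5; Sox10 with Ngfr had -0.269 within DMSO tumours. Of the 112 relations with lists, 0 passed with the 5 low GC libraries left out, which also leaves fewer tumours. The cause of the other changes was not tested. Depth limits Cdh19 and Gfra3, and Ngfr with at most 39.9 counts.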
